A study of Homo sapiens with 6 samples.

Results

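The ADAM, ADAMTS and ADAMTSL genes encode 3 related groups of extracellular proteins. ADAMs are membrane-anchored metalloproteases, and the active ones cut the outer parts of other membrane proteins and so release growth factors, cytokines and adhesion molecules. ADAMTS proteases are secreted, carry thrombospondin repeats, and cut matrix proteins such as procollagens and large proteoglycans. ADAMTSL proteins resemble the ADAMTS tail without the protease domain and bind the matrix. In carcinoma cells these genes bear on growth factor release, invasion and the surrounding matrix.

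The genes were taken from the count table by symbol: ADAM, ADAMTS or ADAMTSL followed by a number alone, with protein-coding status in RefSeq. This gave 44 genes of 42656 rows, of which 20 were ADAM, 19 ADAMTS and 5 ADAMTSL genes. ADAM5 and ADAM6 matched by form and were left out as pseudogenes.

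RNA came from TOV21G, a cell line established from an ovarian clear cell carcinoma. The cells received lentivirus at a multiplicity of infection of 50 and were collected on day 3. The control arm (shCtrl, 3 libraries, labelled wild type) carried the scrambled hairpin TRC2-Scramble_ASN0003, and the other arm (shMEX3A, 3 libraries) carried TRCN230492 against MEX3A, an RNA-binding protein. Both arms therefore share the transduction, the 15% serum and the cell line, and the series has 1 hairpin per arm, so depletion of MEX3A and other effects of that hairpin cannot be told apart. Library totals ran from 34662635 to 48228216 counts. Levels are counts scaled to a common library total (CPM). MEX3A lay between 67.6 and 70.7 CPM in the control libraries and between 19.6 and 22.2 CPM after knockdown, a log2 fold change of -1.72 (SE 0.0462, adjusted p = 1.52e-28). Fold changes are shMEX3A over shCtrl throughout, and a gene was called at an adjusted p of 0.05 in edgeR's quasi-likelihood test over all tested genes. Whether libraries within an arm are separate cultures is not stated, and p-values then measure only the spread among these libraries, which could be technical. In bulk RNA, fewer cells of a type and less RNA per cell cannot be told apart. Markers used for clear cell carcinoma were checked: PAX8 was measured at 192 ± 4.10 CPM in the control libraries and 294 ± 5.20 CPM after knockdown, and ANXA4 at 651 ± 19.0 and 214 ± 5.65 CPM. NAPSA was low, at 0.415 ± 0.147 and 0.729 ± 0.107 CPM.

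Of the 44 genes, 26 passed the filter on low counts and were tested, 13 had some counts but did not pass, and 5 had no count in any library. Among the 26, 15 were called, 7 higher and 8 lower in shMEX3A. Over all 15679 tested genes 69.7% were called, 34.0% higher and 35.6% lower, and 57.7% of the tested members were. Of the 26, 6 rose and 4 fell with a called change of at least 2-fold, against 6.95% and 5.56% of all tested genes. ADAM8, ADAMTS2, ADAMTS5 and ADAMTS8 are among them and averaged under 1 CPM in shCtrl. The libraries of the arms did not overlap in 15 of the 26, where 72.3% of all tested genes were apart. The median log2 fold change was 0.05 over the 26 and -0.01 over all tested genes, and the median size without sign was 0.39 and 0.35. Within the family this size was 0.32 for the 10 tested ADAM genes, 1.44 for the 13 ADAMTS genes and 0.10 for the 3 ADAMTSL genes. The called shares were 70.0%, 61.5% and 0%. Counting error adds to this size at low levels. ADAMTS2, ADAMTS4, ADAMTS5, ADAMTS8 and ADAMTS16 averaged under 1 CPM in shCtrl, as did ADAM8, ADAM20 and ADAMTSL2. A difference between the 3 groups was not tested.

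**Figure D1:**
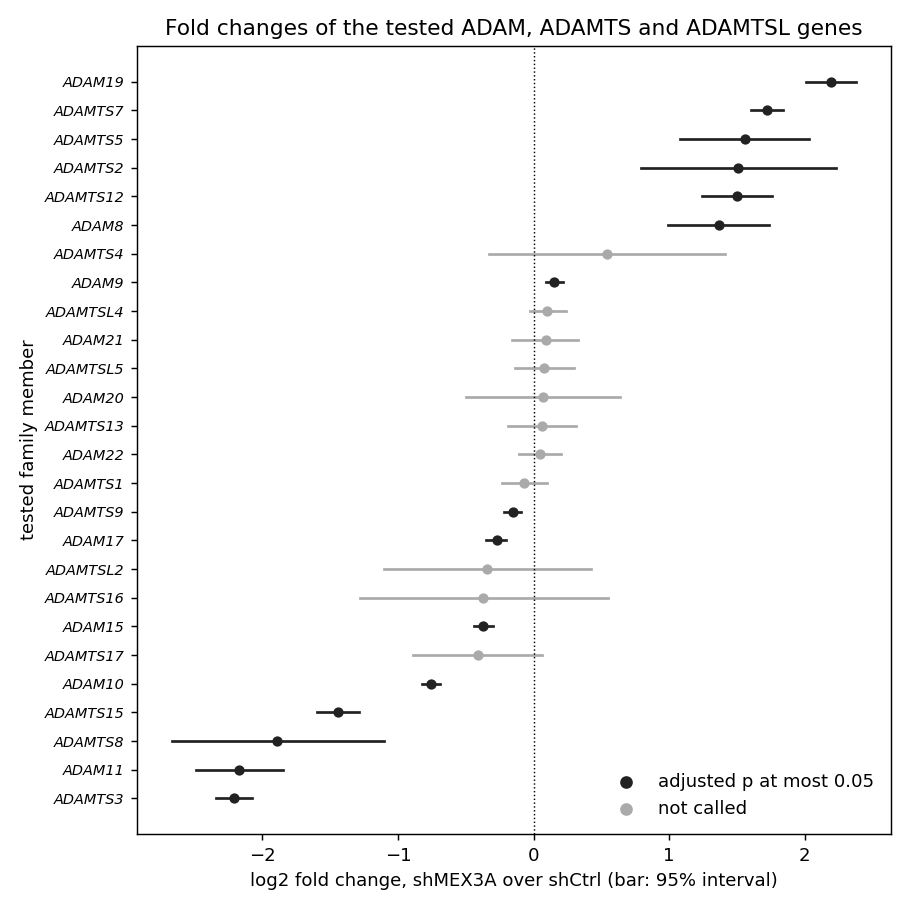
Log2 fold change of each tested family member (horizontal axis, shMEX3A over shCtrl) with its 95% interval, ordered by size, with called genes in black and the others in grey. ADAM19, at 2.19, lies at the upper end and ADAMTS3, at -2.21, at the lower end, and the widest intervals belong to genes under 1 CPM.

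Most of the reads of the family came from 4 genes. ADAM10, ADAMTS9, ADAM9 and ADAM15 together held 78.6% ± 0.171 of the family's CPM in shCtrl and 76.6% ± 0.285 in shMEX3A (SD, n = 3). ADAM10 went from 24.4% ± 0.280 to 16.8% ± 0.124 of it, and ADAM9 from 20.3% ± 0.289 to 26.2% ± 0.885. The summed level of all 44 genes was 929, 952 and 948 CPM in the shCtrl libraries and 812, 818 and 806 CPM in the shMEX3A libraries. These sums do not overlap between arms, and ADAM10 alone went from 231 ± 4.99 to 136 ± 1.97 CPM.

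Levels of different genes can be compared only per length, here as CPM per kilobase (kb) of exon in GENCODE 29. In shCtrl the order was ADAM9 (27.7 ± 0.522), ADAMTS9 (19.1 ± 0.150), ADAM15 (17.5 ± 0.579), ADAM10 (14.3 ± 0.309), ADAM17 (6.88 ± 0.109), ADAMTS3 (4.67 ± 0.0526) and ADAMTS15 (3.41 ± 0.111). Farther down came ADAMTSL5 (1.51 ± 0.0806), ADAM21 (1.46 ± 0.225), ADAMTS1 (1.40 ± 0.0443) and ADAMTS7 (1.33 ± 0.0139). The SD of ADAM21 spans the means of the others, so its place among them is uncertain. In shMEX3A the leading 5 stood in the same order, ADAMTS7 (4.39 ± 0.170) came next, and ADAM19 reached 2.02 ± 0.0963 from 0.439 ± 0.0741. ADAMTS3 went to 1.00 ± 0.0842 and ADAMTS15 to 1.26 ± 0.154 per kb. The lengths are those of all annotated exons joined, so the isoforms these cells use would shift the order.

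**Figure D2:**
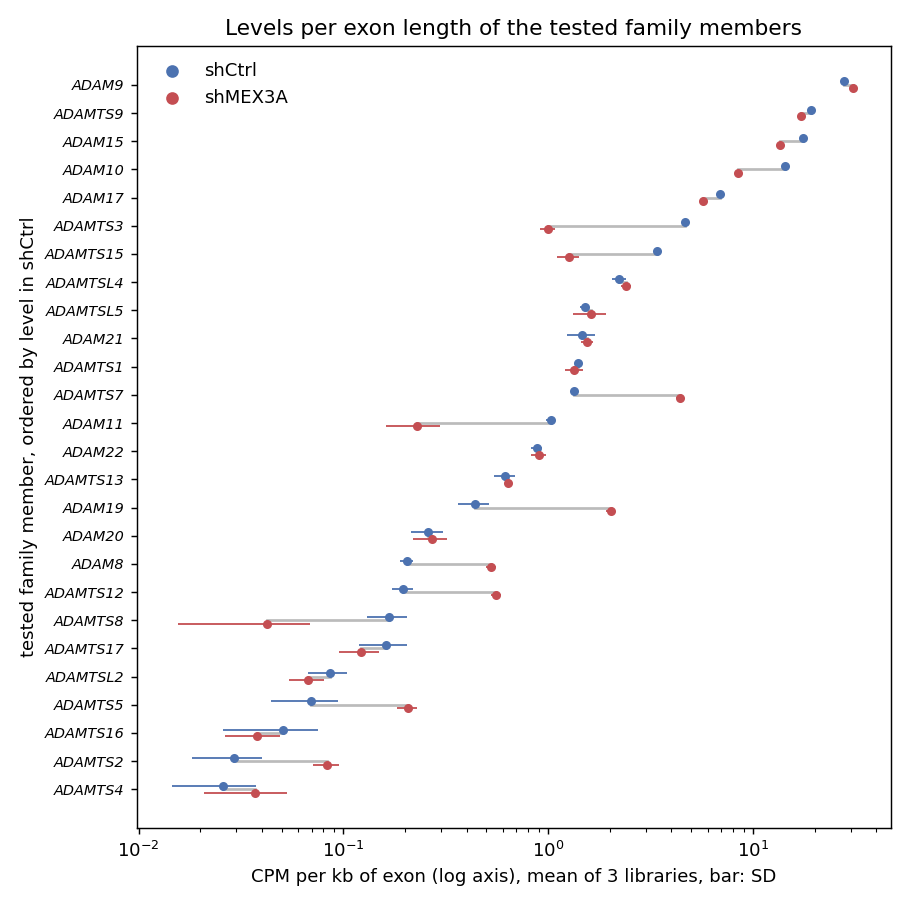
Level of each tested family member in CPM per kb of exon (horizontal log axis) as the mean of 3 libraries with SD, shCtrl in blue and shMEX3A in red, joined by a grey line. The 5 most abundant genes keep their order in both arms, and the longest grey lines include those of ADAMTS3, ADAM19, ADAM11 and ADAMTS8.

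Among the ADAM proteases that can shed membrane proteins, 6 of 9 were tested, and 3 rose and 3 fell, where 69.7% of all tested genes were called. ADAM10, the main sheddase of Notch receptors, cadherins and the amyloid precursor protein, was measured at 225, 232 and 235 CPM in shCtrl and at 137, 138 and 134 CPM in shMEX3A. Every shMEX3A library lay below every shCtrl library, and the mean was 1.69-fold lower (log2 fold change -0.76, SE 0.0313, adjusted p = 1.36e-22). The gene spans chr15:58588807-58749978 (minus strand, GRCh38 with GENCODE 29).

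ADAM17, which releases tumour necrosis factor and several ligands of the EGF receptor, stood at 72.7, 75.1 and 73.9 CPM in shCtrl and 61.1, 62.4 and 60.0 CPM in shMEX3A. The groups were apart, and the fall was small (log2 fold change -0.27, SE 0.0368, adjusted p = 3.00e-08). With offsets for GC content and length it was smaller still, at -0.18 (SE 0.0351). Of its exon bases 13.6% also lie in exons of another gene, mainly IAH1, and the strand setting of the counting is not given in the sources used here. ADAM15, which carries an integrin-binding motif in its disintegrin domain, gave 112, 119 and 115 CPM in shCtrl against 88.4, 88.0 and 90.4 CPM in shMEX3A. It fell by 0.37 on the log2 scale (SE 0.0350), and by 0.60 once offsets for GC content and length were used.

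ADAM9, a widely expressed sheddase, was the one abundant ADAM that rose. Its libraries gave 189, 191 and 196 CPM in shCtrl and 220, 214 and 204 CPM in shMEX3A. These values do not overlap, and the rise was 1.11-fold (log2 fold change 0.15, SE 0.0320, adjusted p = 7.68e-05), or 0.28 in log2 with offsets for GC content and length. Per kb of exon, ADAM9 stood at 27.7 ± 0.522 in shCtrl and 30.8 ± 1.15 in shMEX3A, the highest level of the family in both arms.

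The 2 weakly expressed sheddases moved up strongly. ADAM19, a sheddase of neuregulin known from heart and muscle development, was at 3.93, 2.79 and 3.42 CPM in shCtrl and 15.4, 16.4 and 15.0 CPM in shMEX3A. The lowest shMEX3A library lay well above the highest shCtrl library, and the rise was 4.58-fold (log2 fold change 2.19, SE 0.0933, adjusted p = 5.66e-22). ADAM19 spans chr5:157395534-157575775 (minus strand, GRCh38 with GENCODE 29). ADAM8, best known from leukocytes, went from 1.05, 0.902 and 0.972 CPM to 2.61, 2.59 and 2.36 CPM. It rose 2.58-fold (log2 fold change 1.37, SE 0.186, adjusted p = 3.53e-08) and stayed low in level in both arms.

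The 3 remaining sheddases were near the detection limit and were not tested. ADAM12 had between 1 and 6 counts in a library and ADAM28 between 0 and 4. ADAM33, linked to asthma, had 4, 6 and 3 counts in shCtrl and 0, 1 and 0 in shMEX3A. When no filter on low counts was used, ADAM33 was called lower (adjusted p = 0.0281), and it was the one of the 13 extra members then tested to be called.

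ADAM11, ADAM22 and ADAM23 lack the zinc-binding site, are not proteases, and in neurons serve as receptors for LGI proteins. ADAM11 was measured at 4.75, 5.19 and 4.81 CPM in shCtrl and 1.45, 0.828 and 1.00 CPM in shMEX3A. The arms were far apart, with a 4.50-fold fall (log2 fold change -2.17, SE 0.160, adjusted p = 7.75e-15). ADAM22 gave 10.9, 11.3 and 9.95 CPM in shCtrl and 11.7, 11.4 and 9.97 CPM in shMEX3A, and its ranges overlapped (log2 fold change 0.05, 95% interval -0.11 to 0.20). ADAM23 had 12, 8 and 8 counts in shCtrl and 4, 7 and 5 in shMEX3A and was not tested.

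Of the 8 ADAM genes known mainly from testis, epididymis or sperm, 2 were tested and neither was called. ADAM21 lay at 3.36 to 4.54 CPM in shCtrl and 3.82 to 4.39 CPM in shMEX3A (log2 fold change 0.09, 95% interval -0.16 to 0.33). With offsets for GC content and length it was 0.28 with an adjusted p of 0.0420 in edgeR, and so called. ADAM20, 62.5 kb away on chromosome 14, was below 1 CPM in every library (0.07, 95% interval -0.50 to 0.64). ADAM32 had 3 to 14 counts per library. ADAM2, ADAM7, ADAM18, ADAM29 and ADAM30 had 0 counts in all 6 libraries, which allows at most 0.0637 to 0.0885 CPM per library, the level of 3 counts.

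The procollagen N-proteinases, which trim the amino end of fibrillar procollagens, changed in opposite directions. ADAMTS3, which also acts with CCBE1 to activate the lymphatic growth factor VEGFC, gave 33.9, 33.1 and 33.4 CPM in shCtrl and 7.74, 7.28 and 6.55 CPM in shMEX3A. The libraries of each arm lay close together and far from those of the other, at a 4.64-fold lower mean (log2 fold change -2.21, SE 0.0643, adjusted p = 1.99e-27). ADAMTS3 spans chr4:72280969-72569386 (minus strand, GRCh38 with GENCODE 29).

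ADAMTS2, the main procollagen I proteinase of skin, had 7, 9 and 14 counts in shCtrl and 34, 29 and 25 counts in shMEX3A. That is 0.254 ± 0.0945 against 0.725 ± 0.104 CPM (SD, n = 3), a log2 fold change of 1.51 (SE 0.354, adjusted p = 0.000283). The third enzyme, ADAMTS14, had 1 count in 1 library of each arm and 0 in the others. Summed over the 3 genes, the level went from 33.7 ± 0.341 to 7.92 ± 0.654 CPM, so the gain of ADAMTS2 was small beside the loss of ADAMTS3. CCBE1 was at 0.135 ± 0.0520 and 0.175 ± 0.117 CPM and VEGFC at 0.0354 ± 0.0308 and 0.117 ± 0.0826 CPM, and neither was tested.

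ADAMTS7 and ADAMTS12 share a domain order with a mucin-like stretch and cut cartilage oligomeric matrix protein (COMP), and both rose. ADAMTS7, also studied in vascular disease, was at 10.1, 10.3 and 10.3 CPM in shCtrl and 32.7, 33.8 and 35.4 CPM in shMEX3A. The spread within an arm was small beside the 3.30-fold rise (log2 fold change 1.72, SE 0.0588, adjusted p = 3.26e-25). It spans chr15:78759203-78811431 (minus strand, GRCh38 with GENCODE 29). Its pseudogene ADAMTS7P1 held at most 3 counts in a library, and how reads that match several copies were counted is not given in the sources used here.

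ADAMTS12 followed at a lower level, with 2.13, 1.69 and 1.94 CPM in shCtrl and 5.76, 5.43 and 5.19 CPM in shMEX3A. The rise was 2.83-fold (log2 fold change 1.5, SE 0.129, adjusted p = 4.33e-13), with no overlap. COMP itself fell from 135 ± 3.59 to 102 ± 5.41 CPM (a log2 difference of -0.41, SE 0.0364, adjusted p = 1.50e-12).

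**Figure D3:**
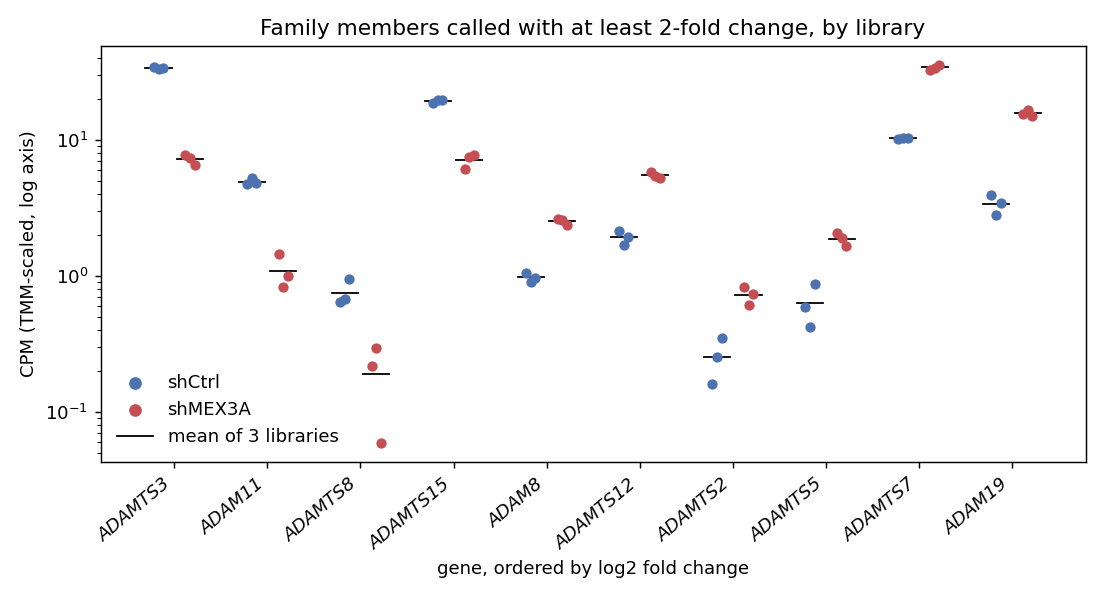
CPM in each library (vertical log axis) of the 10 family members called with at least a 2-fold change, ordered by log2 fold change, with shCtrl in blue, shMEX3A in red and the mean of 3 libraries as a bar. No gene has overlapping arms, with ADAM19 going from at most 3.93 to at least 15.0 CPM and ADAMTS3 from at least 33.1 to at most 7.74 CPM.

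The proteoglycan-cutting ADAMTS group had 6 of 7 genes tested, of which 1 rose and 3 fell (66.7% called, near the 69.7% of all tested genes). ADAMTS9, a versican-cutting protease, was the most abundant ADAMTS gene with 205, 206 and 202 CPM in shCtrl and 179, 186 and 186 CPM in shMEX3A. The arms did not overlap, but the fall was only 1.11-fold (log2 fold change -0.15, SE 0.0308, adjusted p = 3.52e-05). Its antisense neighbours ADAMTS9-AS1 and ADAMTS9-AS2 had at most 29 counts in a library, and 1.6% of its exon bases lie under other exons.

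ADAMTS15, another versican- and aggrecan-cutting enzyme, was at 18.6, 19.7 and 19.7 CPM in shCtrl and 6.12, 7.49 and 7.76 CPM in shMEX3A. It fell 2.72-fold (log2 fold change -1.44, SE 0.0764, adjusted p = 4.43e-19), with wide space between the arms. ADAMTS8, whose product inhibits angiogenesis and which lies 20.0 kb from ADAMTS15 on chromosome 11, had 28, 24 and 38 counts in shCtrl and 9, 14 and 2 in shMEX3A. It also fell (log2 fold change -1.89, SE 0.385, adjusted p = 4.64e-05), from 0.755 ± 0.168 to 0.191 ± 0.121 CPM.

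ADAMTS5, a major cartilage aggrecanase, moved the other way from a low level, with 0.594, 0.423 and 0.872 CPM in shCtrl and 2.06, 1.89 and 1.65 CPM in shMEX3A. Its rise was 2.94-fold (log2 fold change 1.56, SE 0.235, adjusted p = 3.00e-07), and the groups did not overlap. ADAMTS1, which lies 72.5 kb away on chromosome 21, was at 9.55 to 10.2 CPM in shCtrl and 8.66 to 10.5 CPM in shMEX3A. These ranges overlapped (log2 fold change -0.07, 95% interval -0.23 to 0.10). The neighbours thus differ in call on chromosome 21, while both genes of the chromosome 11 pair fell, and the difference between ADAMTS1 and ADAMTS5 was not tested. ADAMTS4, the other well-known aggrecanase, had 6 to 24 counts per library and was not called (0.54, 95% interval -0.33 to 1.41), and ADAMTS20 had 1 count in all.

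The other ADAMTS proteases gave no call. ADAMTS13, the plasma protease that cuts von Willebrand factor, was at 3.52 ± 0.399 CPM in shCtrl and 3.65 ± 0.110 CPM in shMEX3A (log2 fold change 0.06, 95% interval -0.19 to 0.31). ADAMTS17, which like ADAMTS10 is tied to fibrillin and to Weill-Marchesani syndrome, was at 1.34 ± 0.351 and 1.01 ± 0.219 CPM (-0.41, 95% interval -0.89 to 0.06). It was called lower without shCtrl replicate 2 (log2 fold change -0.61, adjusted p = 0.0278 in edgeR) and with GC and length offsets (-0.62, adjusted p = 0.0170 in edgeR). ADAMTS16 was at 0.297 ± 0.145 and 0.222 ± 0.0666 CPM (-0.37, 95% interval -1.28 to 0.55). ADAMTS6, ADAMTS18 and ADAMTS19 had 0 counts in each shCtrl library and at most 4 in a shMEX3A library, and ADAMTS10 had 0 to 4 counts, so changes in them were not detectable at this depth.

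No ADAMTSL gene was called. ADAMTSL4, a fibrillin-binding protein needed to hold the lens in place, was the most abundant with 13.6, 15.6 and 13.8 CPM in shCtrl and 14.7, 15.3 and 16.3 CPM in shMEX3A. These overlapped (log2 fold change 0.10, 95% interval -0.03 to 0.24). Without shCtrl replicate 2 it was called higher at 0.17 (adjusted p = 0.0467 in edgeR), and with GC and length offsets its value was -0.12 and not called. Exons of other genes, mainly ADAMTSL4-AS1, cover 14.4% of its exon bases, and both antisense rows rose (2.15-fold and 2.04-fold) from at most 16 counts to at most 34 counts per library. ADAMTSL5 was at 5.48 ± 0.292 and 5.86 ± 1.07 CPM (0.08, 95% interval -0.14 to 0.30). ADAMTSL2, which acts on TGF-beta in the matrix, was at 0.401 ± 0.0857 and 0.314 ± 0.0603 CPM (-0.34, 95% interval -1.10 to 0.42). ADAMTSL1 and ADAMTSL3 had at most 3 counts in a library.

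Promoter sequences are shown for 4 members with an entry, so that ADAM19 and the COMP-cutting pair ADAMTS7 and ADAMTS12, which rose, can be set beside ADAMTS3, which fell. They were chosen after their values were seen, and ADAMTS2, which rose by a like amount to ADAMTS12, also has an entry. RefSeq's promoter table (GRCh38.p14) matched 29 of the 44 members and 17 of the 26 tested ones. Each sequence runs 5′ to 3′ on the gene's strand, from 250 bases before the start to 50 after it, and all 4 genes lie on the minus strand. The windows are chr5:157575726-157576025 for ADAM19, chr15:78811415-78811714 for ADAMTS7, chr5:33891941-33892240 for ADAMTS12 and chr4:72569172-72569471 for ADAMTS3. Capitals mark matches on either strand to the GC box bound by Sp1-type factors (GGGCGG), an AP-1-like motif (TGANTCA) and the cyclic AMP response element (TGACGTCA). In TGANTCA, N stands for any base, which is looser than the usual AP-1 motif.
ADAM19: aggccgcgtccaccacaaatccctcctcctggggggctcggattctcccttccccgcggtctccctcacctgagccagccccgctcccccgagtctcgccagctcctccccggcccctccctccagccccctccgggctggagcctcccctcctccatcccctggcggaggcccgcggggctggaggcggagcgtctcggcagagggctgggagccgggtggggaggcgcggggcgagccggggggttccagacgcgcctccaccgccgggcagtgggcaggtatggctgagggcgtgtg
ADAMTS7: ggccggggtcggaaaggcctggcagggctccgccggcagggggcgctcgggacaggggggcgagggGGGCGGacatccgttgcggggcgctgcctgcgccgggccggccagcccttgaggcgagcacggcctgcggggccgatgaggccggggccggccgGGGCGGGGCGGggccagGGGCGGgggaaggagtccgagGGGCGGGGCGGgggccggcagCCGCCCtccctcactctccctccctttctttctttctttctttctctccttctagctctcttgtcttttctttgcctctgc
ADAMTS12: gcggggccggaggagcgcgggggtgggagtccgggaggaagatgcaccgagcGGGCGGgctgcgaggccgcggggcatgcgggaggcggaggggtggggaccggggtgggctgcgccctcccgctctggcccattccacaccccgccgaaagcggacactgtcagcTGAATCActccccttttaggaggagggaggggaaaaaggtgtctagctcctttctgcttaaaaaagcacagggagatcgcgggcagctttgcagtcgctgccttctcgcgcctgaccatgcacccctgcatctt
ADAMTS3: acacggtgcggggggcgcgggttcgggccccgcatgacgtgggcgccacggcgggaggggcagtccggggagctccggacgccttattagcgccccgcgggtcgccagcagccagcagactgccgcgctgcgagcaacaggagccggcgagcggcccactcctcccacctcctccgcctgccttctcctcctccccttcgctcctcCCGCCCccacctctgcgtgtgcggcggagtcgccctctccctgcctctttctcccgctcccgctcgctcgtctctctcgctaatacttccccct
ADAM19 holds none of these motifs, and ADAMTS7 holds 7 GC boxes counted with overlaps. ADAMTS12 holds 1 GC box and 1 AP-1-like motif, which reads TGAATCA, and ADAMTS3 holds 1 GC box. A GC box was found in 4 of 5 called higher members with a promoter, 4 of 4 called lower and 6 of 8 tested but not called, against 45.0% of all 35116 promoters. All promoters here include those of genes that were not tested, so the sets are unlike, and a difference was not tested. The AP-1-like motif was found in 1, 0 and 0 of these 3 sets, against 7.71% of all promoters, and the cyclic AMP response element in none, against 1.85%. A further 3 motifs were searched on both strands: the E-box CACGTG (7.26% of all promoters), the TATA box TATAAA (11.5%) and the TEAD motif GGAATG (14%). They were found in 0, 0 and 1 of the 5 higher members and in 1, 0 and 1 of the 4 lower ones. Among the 8 tested but not called they were found in 1, 2 and 1. A match is a run of letters, not a shown binding site.

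Of 7 listed inhibitors and clearance genes 4 were tested, and 1 rose and 1 fell. The called share was 50.0%, against 69.7% of all tested genes, 34.0% higher and 35.6% lower. TIMP2, an inhibitor of matrix metalloproteases, fell from 459 ± 8.56 to 299 ± 5.96 CPM (a log2 difference of -0.62, SE 0.0297). LRP1, the scavenger receptor that takes up several ADAMTS proteases, rose from 236 ± 8.36 to 350 ± 2.54 CPM (0.57, SE 0.0307), and by 0.26 after the GC and length offsets. TIMP3, the TIMP that inhibits ADAM17 and the ADAMTS aggrecanases best, was at 0.0623 ± 0.0694 and 0.0822 ± 0.0552 CPM and not tested. TIMP1 was at 277 ± 12.1 and 275 ± 4.31 CPM and was not called (-0.01, 95% interval -0.07 to 0.05).

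Of the genes that mature and carry the proteases, 15 were tested, 8 higher and 3 lower. The called share of 73.3% was near the 69.7% of all tested genes, of which 34.0% were higher and 35.6% lower. FURIN, which removes the inhibitory prodomain, rose from 82.5 ± 2.30 to 178 ± 4.11 CPM (a log2 difference of 1.11, SE 0.0338), and the related convertase PCSK7 from 42.4 ± 1.95 to 83.2 ± 5.53 CPM (0.97, SE 0.0455). PCSK5 fell from 17.2 ± 1.18 to 9.92 ± 0.480 CPM (-0.79, SE 0.0707). The tetraspanins of the TspanC8 group escort ADAM10 to the cell surface, and they changed unequally. TSPAN14 rose from 184 ± 0.423 to 363 ± 7.15 CPM (0.98, SE 0.0299). TSPAN15 rose from 12.2 ± 1.08 to 22.3 ± 1.25 CPM (0.86, SE 0.0669), and TSPAN17 rose slightly (0.10, SE 0.0361). TSPAN5 fell from 18.8 ± 0.781 to 9.43 ± 0.913 CPM (-1.0, SE 0.0715) and TSPAN33 by 0.17 on the log2 scale (SE 0.0516). TSPAN10 was not called (0.04, 95% interval -0.22 to 0.30).

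Proteins known to be shed by ADAMs were called in 32 of 37 tested genes, 20 higher and 12 lower (86.5%, against 69.7% of all tested genes, 34.0% higher and 35.6% lower), with a median log2 fold change of 0.35. Whether the list differs from other genes was not tested. TGFA, an EGF receptor ligand released by ADAM17, rose from 48.3 ± 1.45 to 167 ± 2.00 CPM (a log2 difference of 1.79, SE 0.0357). L1CAM, an adhesion molecule cut by ADAM10, rose from 469 ± 9.63 to 871 ± 14.9 CPM (0.89, SE 0.0295), and the receptor ERBB2 from 181 ± 5.87 to 278 ± 8.09 CPM (0.62, SE 0.0319, and 0.40 after the GC and length offsets). Notch genes, whose receptors ADAM10 cuts after ligand binding, went both ways. NOTCH1 rose from 81.1 ± 2.12 to 104 ± 2.48 CPM (0.36, SE 0.0357), JAG2 was not called (0.19, 95% interval -0.12 to 0.50), and NOTCH3 fell from 66.8 ± 2.46 to 27.7 ± 1.87 CPM (-1.27, SE 0.0461). NOTCH2 fell from 221 ± 9.96 to 134 ± 4.79 CPM (-0.72, SE 0.0347) and the ligand JAG1 from 171 ± 4.08 to 120 ± 1.20 CPM (-0.51, SE 0.0321).

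Known substrates of ADAMTS proteases were called in 17 of 18 tested genes, 13 higher and 4 lower (94.4%, against the same 69.7%, 34.0% and 35.6%), with a median of 0.70. Here too a difference from other genes was not tested. COL1A1 and COL1A2, the chains of type I collagen, rose by 3.16 (SE 0.0474) and 1.00 (SE 0.0290) on the log2 scale. NID2, a basement membrane protein, rose from 233 ± 1.71 to 439 ± 3.42 CPM (0.92, SE 0.0292). VCAN, the proteoglycan versican, fell from 961 ± 20.9 to 682 ± 10.4 CPM (-0.49, SE 0.0293), THBS1 fell by 0.52 (SE 0.0383), and COMP is given above. The partner genes said here to have risen or fallen had adjusted p values of at most 0.0128 in edgeR.

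**Figure D4:**
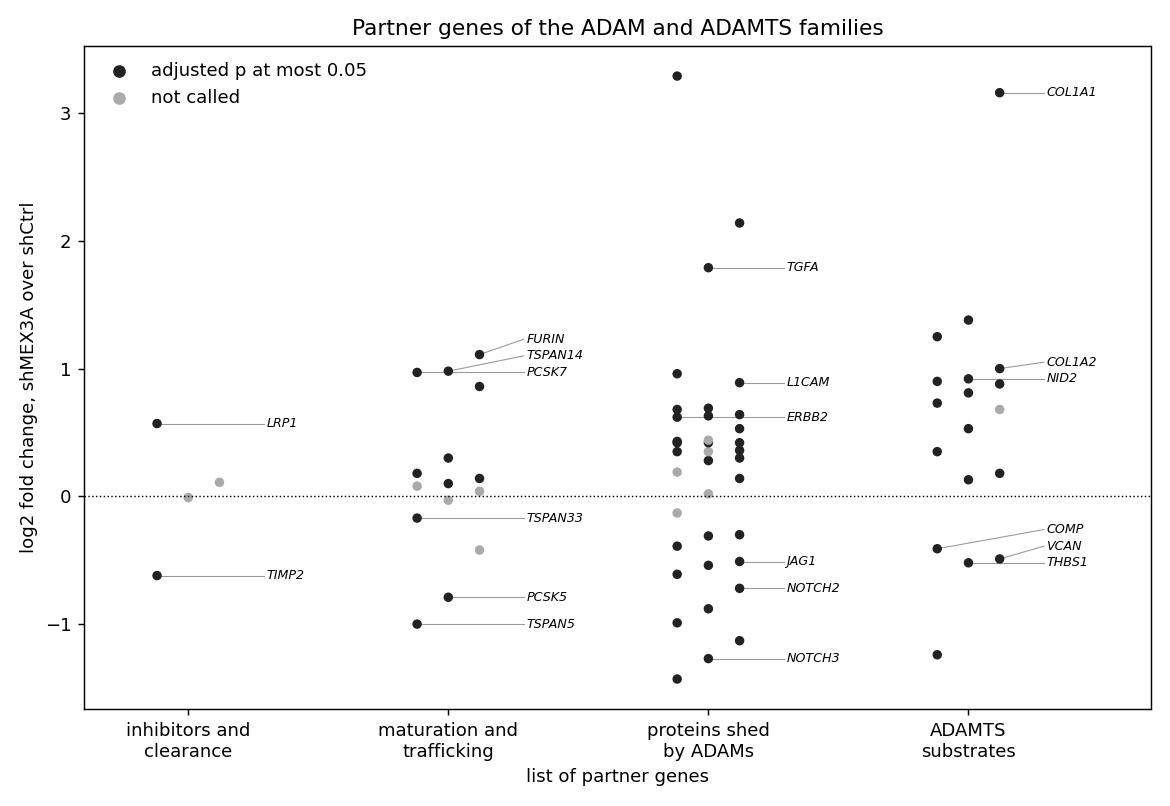
Log2 fold change (vertical axis, shMEX3A over shCtrl) of the tested genes in 4 lists of partners, with called genes in black, others in grey, and thin lines from the named genes to their labels. The list of ADAMTS substrates has 13 of 18 genes called above 0, and the list of inhibitors and clearance genes has 1 above and 1 below. Of all tested genes 34.0% were called higher and 35.6% lower.

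Markers of other cells that express these proteases were low. The sum of each list was higher in shMEX3A, but most of the listed markers were not tested. Over all tested genes 69.7% were called, 34.0% higher and 35.6% lower, and whether these lists differ from other genes was not tested. Of 8 fibroblast markers 2 were tested and 1 rose, and the sum ran from 5.61 to 5.92 CPM in shCtrl and from 9.04 to 11.3 CPM in shMEX3A, mostly from DCN. THY1, the other one tested, was not called (log2 fold change 0.20, 95% interval -0.46 to 0.86). LUM, FAP, POSTN and PDGFRA were each at or below 0.116 CPM on average. Of 8 endothelial markers 2 of 3 tested rose, with a sum of 5.01 to 5.16 and 9.95 to 11 CPM, mostly from TIE1. PECAM1, the other one tested, was lower and not called (log2 fold change -0.79, adjusted p = 0.0666 in edgeR). KDR, CLDN5 and EMCN were at 0 in every library. Of 8 leukocyte markers 2 of 2 tested rose, with a sum of 7.63 to 8.71 and 10.6 to 11.1 CPM, mostly from CD68. CD68 rose from 7.07 ± 0.529 to 8.46 ± 0.140 CPM (0.27, SE 0.0856). ITGAM rose from 0.659 ± 0.209 to 2.01 ± 0.141 CPM (1.6, SE 0.225). CD3E and MS4A1 were at 0. The part of these markers in the rises of ADAM8, ADAM19, ADAMTS2, ADAMTS5 and ADAMTS12 was not tested.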

How the data were processed

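RNA sequencing of 6 TOV21G libraries was analysed from a table of raw read counts per gene, deposited by the authors with 1 column per library. The submitters' processing notes name fastp 0.20.0, STAR, HTSeq 2.0.4, edgeR 4.0.16 and GRCh38. The STAR version, the annotation and the strand setting are each not given in sources used here. The tests ran in edgeR 4.0.16 under R 4.3.3 (filterByExpr, TMM scaling, robust quasi-likelihood fit, 4 residual degrees of freedom), and the Benjamini-Hochberg adjustment ran over 15679 tested genes. CPM are counts scaled by TMM. Standard errors came from the F statistic and 95% intervals from its moderated degrees of freedom. Exon lengths and overlaps came from GENCODE 29. TMM takes most genes as unchanged, so changes are relative to the other genes.

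Members described by library are those called with at least 2-fold change or with a mean of 10 CPM or more in either arm. Untested members are given by counts. Partner genes named as changed are the 3 with the smallest p in each direction of a list. NOTCH1, TSPAN15, TSPAN17 and some uncalled genes were named after their values were seen. A gene on several lists counts in each. The members and lists were chosen with earlier results of these data known. Alternatives were DESeq2 1.42.0, limma 3.58.1 voom, other scalings and filters, the replicate block and each library left out. Offsets for GC content and length (splines with 5 degrees of freedom, 14479 genes) were added after seeing the data. The test was checked on simulated data. The values of 1 marker are not reported here.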

Additional observations from a re-analysis of the deposited data

How the results depend on the processing

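All 15 called members kept their direction and their call under every alternative that tested them. With the replicate block 7 members were higher and 8 lower, as without it, and 5247 of all tested genes were higher and 5504 lower; deviations of libraries that share a number correlated between -0.0769 and 0.0772, so the numbers were not taken to pair the arms. DESeq2, voom and both other scalings also gave 7 higher and 8 lower. A filter of at least 1 CPM in 3 libraries tested 20 members and called 6 higher and 7 lower, since it drops ADAMTS2 and ADAMTS8. No filter tested 39 and called 7 higher and 9 lower. Leaving out 1 library gave 7 to 8 higher and 8 to 9 lower, the higher numbers without shCtrl replicate 2. With offsets for GC content and length, added after seeing the data, 8 were higher and 9 lower. Over the members, 380 values kept their side of the threshold, 4 gained a call and 0 lost one. MEX3A ranged from -1.68 to -1.82 in log2. Counting error limits members with few counts, and of the 18 members the filter left untested, only ADAM33 was called (adjusted p = 0.0281 in edgeR) when no filter was used.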
